A study of Rattus norvegicus with 458 samples.

Results

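The 6 mature microRNAs (miRNAs) of the rat miR-216 and miR-217 cluster, miR-216a-5p, miR-216a-3p, miR-216b-5p, miR-216b-3p, miR-217-5p and miR-217-3p, were followed through a sequencing atlas of small RNA from 23 rat tissues. They were found by name among 7534 names in the table of counts per miRNA, and again in the tables of single read sequences (isomiRs). The animals were 10 naive Sprague Dawley rats of 12 to 13 weeks, rats 2 to 6 male and rats 7 to 11 female, with no treatment in any group, and they gave all tissues but the dorsal root ganglion (DRG). Each tissue was compared with the others, and a replicate was 1 library of 1 tissue of 1 rat. Ovary, uterus and testicle came from the 5 rats of 1 sex, and the DRG libraries were 10 technical libraries of 2 pools of RNA from 5 rats each, 1 pool for each sex. The DRG RNA came from another laboratory, and its libraries carry sample numbers of their own, labelled with the same strain and age. Pancreas RNA was partly degraded, with RNA integrity numbers (RIN) from 4.9 to 6.8. The libraries held 376401 to 17725805 counts each (median 4816410). Levels below are in CPM, a miRNA's counts scaled to the total of its library. Since 1 read covers 1 whole miRNA, no correction for length was made. Adapter ligation in such libraries favours some sequences over others, a limit the study names for its own data, so values of different members, arms or isomiRs set reads side by side and not molecules. The part of ligation in the ratios below was not tested. The precision of a low level is set by depth: 3 counts, the limit that a count of 0 allows, were worth 0.169 to 7.97 CPM (median 0.623), and 78 libraries held 3 counts of the 6 members or fewer. Intervals and limits given here cover counting error only.

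A miRNA gene is transcribed into a longer RNA from which a hairpin is cut, and each arm of the hairpin can give a mature miRNA, named 5p or 3p. The mature strand guides the silencing complex to messenger RNAs, mainly through the seed near its 5' end, so a shift of the 5' end changes the bases that are read as the seed. The miR-216 and miR-217 genes lie side by side in vertebrate genomes and are best known from acinar cells, which make the digestive enzymes of the exocrine pancreas.

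The mature sequences are shown because the 5' ends of these miRNAs carry one of the results below. They were taken from RefSeq (build GRCr8), with the seed, bases 2 to 8, in capitals.
miR-216b-5p: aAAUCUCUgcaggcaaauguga
miR-216b-3p: cACACUUAcuuguagagauu
miR-216a-5p: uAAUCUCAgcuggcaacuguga
miR-216a-3p: cACAGUGGucucugggauuaug
miR-217-5p: uACUGCAUcaggaacugacugg
miR-217-3p: aUCAGUUCcuaaugcauugccu

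All 6 lie on the plus strand of chromosome 14. The order along the chromosome was miR-216b (5p at chr14:106714045-106714066, 3p at chr14:106714084-106714103), miR-216a (chr14:106725095-106725116 and chr14:106725135-106725156) and miR-217 (chr14:106732516-106732537 and chr14:106732554-106732575). The 3 hairpins spanned 18564 bases, with 10949 bases between the first and the second and 7302 between the second and the third. All 3 lie within the annotated bounds of the long noncoding RNA gene LOC102550402, and miR-216a and miR-217 also within LOC102550342; exons and introns were not given. No pair of members shared a whole seed. The closest pair, miR-216a-5p and miR-216b-5p, was identical at 18 of 22 positions and at 6 of 7 seed bases. Within the seed these 2 were the same at bases 2 to 7 and differed at base 8.

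Before the results, 10 libraries have to be set apart, because their whole profiles, with the 6 members left out, lay closer to another tissue than to their own label. The libraries labelled duodenum of rats 2, 4, 7 and 11 lay closest to cerebrum, hippocampus, hippocampus and adrenal. The libraries labelled adrenal of rat 8, hippocampus of rat 6, ovary of rat 11 and uterus of rat 8 lay closest to duodenum (median r of 0.922 to 0.963). The libraries labelled hippocampus of rats 2 and 7 lay closest to uterus and ovary. Results of the 6 members that rest on these libraries are given with and without them. The comparisons of the sexes in pancreas and of sequencing lanes are exceptions, and were made with them only. The labels of pancreas and of duodenum in rats 3, 5, 6, 8, 9 and 10 were checked against markers. MiR-375-3p, a miRNA of pancreatic islets and other endocrine cells, stood at 29656 to 44607 CPM in pancreas, against 2771 to 6274 CPM in jejunum. Intestinal epithelial miRNAs (the miR-192 and miR-194 family) summed to 360763 to 481149 CPM in the 6 duodenum libraries, to 1226 to 1840 CPM in pancreas and to 361 to 1827 CPM in the 4 others labelled duodenum.

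The 6 members were highest in pancreas, lower in duodenum, and lower again in parts of the nervous system. In pancreas their sum was 8921 to 16944 CPM (median 12707, n = 10). In duodenum of the 6 rats it was 672 to 1515 CPM (median 982). Duodenum libraries of rats 2, 4, 7 and 11 held 0.388 to 1.93 CPM. Next came DRG at 23.0 to 53.6 CPM (median 27.3), brainstem at 12.9 to 40.6 CPM (median 24.7) and cerebellum at 4.53 to 15.5 CPM (median 10.4). Testicle had 2.06 to 18.4 CPM, resting on 19 counts in 5 libraries, and heart and cerebrum had medians of 2.13 and 1.90 CPM. The other tissues had lower medians still, and in 12 tissues the median was under 1 CPM (0.402 to 0.851). With the 10 libraries left out, only 2 of the 22 neighbouring pairs in this order were apart: pancreas from duodenum, and duodenum from DRG. The ranges of the other 20 pairs overlapped.

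**Figure D1:**
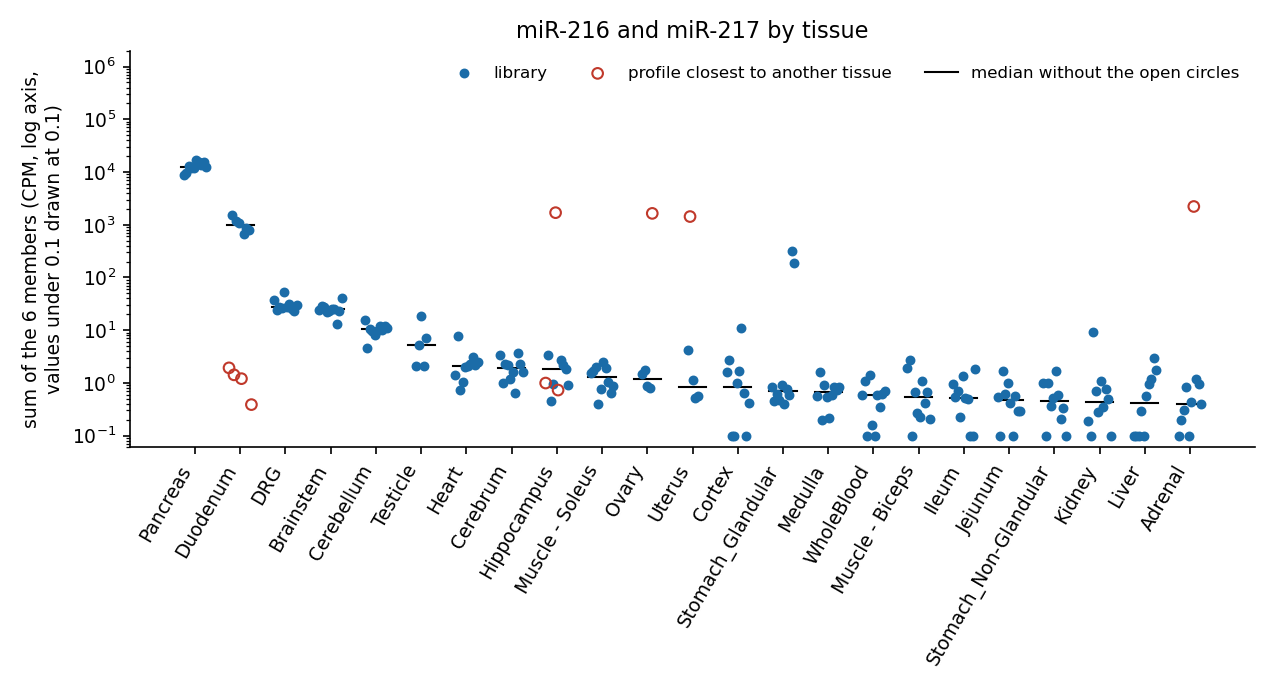
Summed level of the 6 members in each library (CPM, log axis), by tissue in order of the median. Pancreas libraries lie between 8921 and 16944 CPM, above every other library; open circles mark the 10 libraries whose profile lay closest to another tissue, 4 of them at 1431 to 2222 CPM outside duodenum.

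The 4 libraries labelled adrenal, hippocampus, ovary and uterus that resembled duodenum carried the members at 2222, 1696, 1644 and 1431 CPM. These levels were within or above the duodenal range, while the other libraries of those labels were at 4.15 CPM or below. Their intestinal epithelial miRNAs summed to 357528 to 420721 CPM. In them miR-217-5p took 49.3% of the members' counts and miR-216a-5p 34.3%, against 50.9% and 33.8% in the 6 duodenum libraries.

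Pancreas against the mean of the other 22 tissues was tested by edgeR's quasi-likelihood test over 1641 names. All 6 members were higher in pancreas, with log2 differences from 9.84 ± 0.57 (SE, miR-217-3p) to 11.36 ± 0.56 (miR-216a-5p), and the largest adjusted p was 9.42e-31 (miR-216b-3p). Of all names tested, 29.5% were called higher and 13.3% lower, and the median difference was 0.17. Without the 10 libraries the 6 differences were 11.01 to 12.75, with 31.1% of names called higher. In bulk tissue, fewer cells of a type and less RNA per cell cannot be told apart. As a share of the summed means of the 23 tissues, pancreas held 83.0% (miR-216b-5p) to 90.0% (miR-216a-5p) of each member, and 88.3% to 93.3% without the 10 libraries. The pancreas libraries held 452337 of the 494692 member counts of the series.

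Other names with a pattern like that of miR-216a-5p were looked for among the 318 names with at least 10 CPM in pancreas, as Pearson's r of the 23 tissue means (log2 of CPM plus 1, a description only). The 5 other members had r of 0.967 to 0.990. The nearest other names were those of miR-148a, an abundant miRNA of pancreas and liver. A minor entry named miR-148a-3p had r = 0.92, the composite that takes nearly all of its reads 0.79, and the composite of miR-148a-5p 0.75. MiR-7704 had 0.69 and the composite of miR-141-3p and miR-200a-3p 0.66. Without the 10 libraries, miR-4286 (0.58) took the place of miR-7704. The miR-148a-3p composite took 53.6% to 63.7% of all pancreas counts, so each CPM value in pancreas also depends on it. Its mean was 593509 CPM in pancreas, 58421 CPM in duodenum of the 6 rats and 56249 CPM in liver.

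A list of 9 other names known from pancreas (miR-148a-3p alone and as a composite, miR-141-3p, miR-200c-3p, miR-193b-3p, miR-101c, miR-320-3p, miR-375-3p and miR-802-5p) was read in the same fits. All 9 were called higher in pancreas than in the other tissues, against 29.5% of all names. In the fit over all duodenum libraries, 7 of 9 were called higher in pancreas than in duodenum, against 14.2%. That fit holds the duodenum libraries that lay closer to another tissue, and calls for this list without them are not given. MiR-193b-3p, at 65.9 to 188 CPM in pancreas and 12.8 to 18.95 CPM in duodenum of the 6 rats, did not overlap between the tissues. MiR-141-3p, an epithelial miRNA, stood at 15548 to 19750 CPM against 1755 to 2655 CPM. MiR-802-5p overlapped, at 175 to 362 CPM against 177 to 252 CPM. In the fit over all duodenum libraries miR-802-5p was not called (edgeR adjusted p = 0.42), and miR-200c-3p had an adjusted p of 0.0564.

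Within pancreas, miR-217-5p and miR-216a-5p took most of the cluster's reads. MiR-217-5p, the main product of its hairpin, ranged from 3932 to 9022 CPM and averaged 6246 ± 1646 CPM (SD, n = 10), place 18 among all names by mean. MiR-216a-5p ranged from 3654 to 6937 CPM and averaged 5044 ± 944 CPM, place 20. The 4 other members were lower: miR-216b-5p had 474 to 964 CPM (mean 683 ± 141), miR-216a-3p 433 to 650 (500 ± 62.4), miR-216b-3p 187 to 472 (310 ± 93.5) and miR-217-3p 97.8 to 184 (143 ± 31.2). The 2 main products did not overlap the 4 others in any library.

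**Figure D2:**
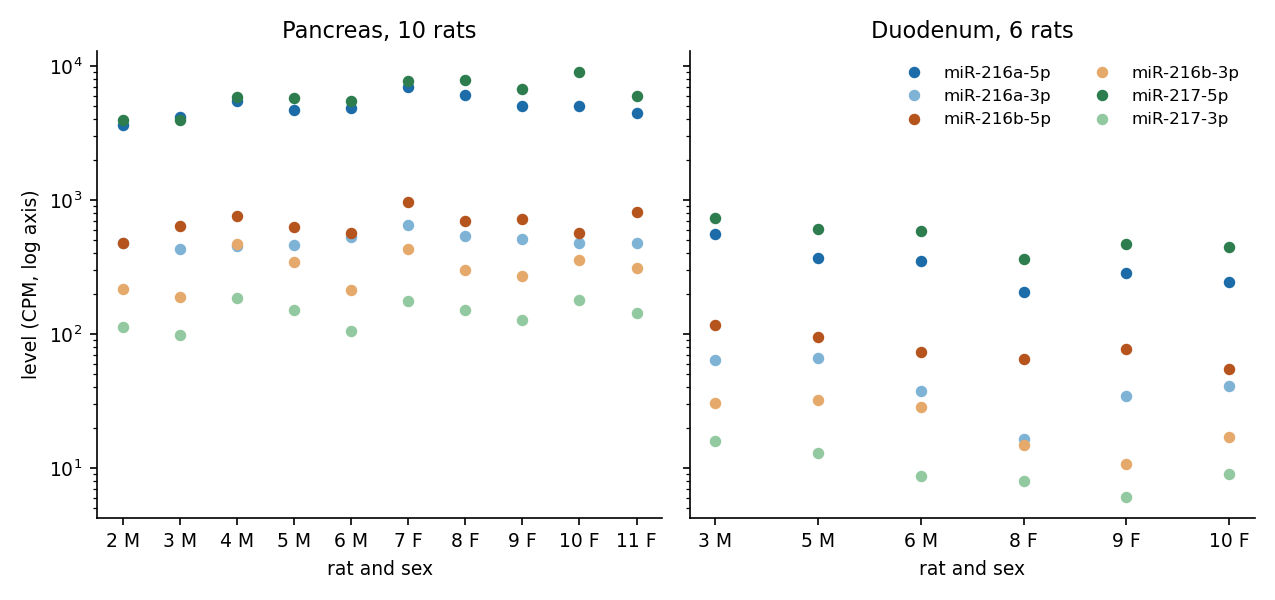
Level of each member (CPM, log axis) in pancreas of 10 rats and duodenum of 6 rats, males (M) then females (F). MiR-217-5p and miR-216a-5p lie above the other 4 members in every library, and each duodenum value lies below the pancreas values of the same member.

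Whether the members vary together was asked across the 10 pancreas libraries. All 15 pairs had Pearson's r above 0 (0.26 to 0.97, log2 CPM, n = 10), and 1 of 15 passed adjustment over the pairs. That pair, miR-216b-3p and miR-217-3p, comes from hairpins at the 2 ends of the cluster (r = 0.97, Spearman's rho = 0.98, permutation p = 2.0e-05 and 3.0e-05, adjusted p = 0.0003 and 0.00045). Without the 2 libraries farthest from the median its r was 0.96 over 8. The sign did not hold for every pair: r was below 0 in 4 of 15 pairs without the 2 farthest libraries (lowest -0.19) and in 2 of 15 with the miR-148a-3p composite left out of the totals (lowest -0.09), and miR-216a-3p with miR-216b-3p was among them in both. The main products miR-216a-5p and miR-217-5p had r = 0.78 and rho = 0.73 (permutation p = 0.00749 and 0.0199, adjusted p = 0.0553 and 0.149). Without its own 2 farthest libraries r was 0.69. For the 2 arms of 1 hairpin r was 0.74 for miR-216a, 0.60 for miR-216b and 0.76 for miR-217, with adjusted permutation p of 0.0553, 0.113 and 0.0553. The count of pairs past adjustment was 14 when levels were scaled by upper quartile factors, 6 within flow cell D1GBMACXX, and 1 with the miR-148a-3p composite left out of the totals. Pairs of other pancreas names were not computed, so whether such co-variation is particular to the cluster was not tested.

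RNA integrity and depth were read beside these levels. MiR-217-5p had r = -0.75 with RIN (rho = -0.71, permutation p = 0.0132 and 0.0275, adjusted p = 0.158 and 0.125), and r = -0.48 without the 2 libraries farthest from the median. With upper quartile factors it was -0.10 (rho = -0.11, permutation p = 0.78 and 0.765). Of the 12 relations of members with RIN or total count, none passed adjustment and 2 had an unadjusted permutation p of r below the threshold. The other was miR-217-3p with total count (r = -0.65, permutation p = 0.0353). By rho, miR-216b-3p fell with total count (-0.70, permutation p = 0.0303) and miR-217-3p with RIN (-0.69, 0.0312), each with an adjusted p of 0.125. These members form the pair that passed adjustment above. With upper quartile factors these rho were 0.36 and 0.08. With upper quartile factors none passed adjustment either, and the relation with total count was positive for miR-216a-5p (r = 0.64, unadjusted permutation p = 0.0392), miR-216a-3p (0.66, 0.0335) and miR-216b-5p (0.68, 0.0287), each with an adjusted p of 0.157. Their part in the pairwise relations was not tested.

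Between the sexes, females had summed levels of 12239, 13388, 15635, 15645 and 16944 CPM and males 8921, 9439, 11780, 12089 and 13176 CPM, so the groups overlapped between 12239 and 13176 CPM. The log2 difference of the means was 0.42 by total counts and 0.29 by upper quartile factors. The edgeR test, in a fit with a term for each tissue and sex, called 0 of the 6 members (log2 differences of -0.09 to 0.33, all adjusted p = 1), 0 at an unadjusted p and 0 with DESeq2. In that comparison 0.178% of 1122 names were called higher in females. For miR-217-5p the difference was 0.33 ± 1.09 (SE), so a difference of the size of this SE was not detectable in this fit, whose spread is shared by 19 tissues. Among these are duodenum, hippocampus and adrenal, with their libraries that lay closer to another tissue. The comparison was not made without those libraries.

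The reads of the 3 hairpins were split between their 2 arms in different proportions. In every pancreas library the 5p arm had more counts. For miR-217 the counts of 5p over 3p had a mean log2 ratio of 5.44 ± 0.26 (SD, n = 10; 31.8 to 52.7 as a ratio). The ratio was 3.32 ± 0.18 for miR-216a (7.67 to 12.0) and 1.17 ± 0.36 for miR-216b (1.59 to 3.44). The ranges of the 3 hairpins did not overlap. MiR-217 exceeded miR-216a by 2.11 ± 0.30 and miR-216b by 4.26 ± 0.37, and miR-216a exceeded miR-216b by 2.15 ± 0.46. Each difference had its sign in 10 of 10 rats and an adjusted p of 0.00195 (exact two-sided sign-flip permutation test), the smallest that 10 pairs can give.

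In duodenum the same members were present at a small part of their pancreas level. The pancreas collected from the same rat gave the reference. The summed level in duodenum was 16.05%, 9.78%, 9.21%, 4.30%, 6.57% and 5.18% of that in pancreas for rats 3, 5, 6, 8, 9 and 10 (mean 8.51% ± 4.28, SD). By member the mean was lowest for miR-216a-5p (7.05% ± 3.47) and highest for miR-216b-5p (12.6% ± 3.38). In the fit over all tissues and all 10 duodenum libraries, pancreas was above duodenum for 6 of 6 members, against 14.2% of all names called higher and 23.8% lower. The log2 differences were 3.73 ± 1.04 (miR-216b-5p) to 4.57 ± 1.15 (miR-216a-5p), with adjusted p of 2.49e-05 to 0.00168 in edgeR. DESeq2 called 4 of 6, against 125 names higher and 446 lower of 1641. Without the 10 libraries the differences were 2.97 to 3.82, all 6 called, against 11.4% of names.

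Jejunum, the next segment of the gut, nearly lacked the cluster. Jejunum libraries held 0 to 1.72 CPM of the 6 members (median 0.479), and 2 of 10 held none. Over all 10 duodenum libraries, 6 of 6 members were called higher than in jejunum by edgeR, against 21.5% of all names higher and 9.75% lower. MiR-216a-5p differed by 9.87 ± 1.59 and miR-217-5p by 9.58 ± 1.52 in log2 (SE, adjusted p = 4.16e-08 and 2.31e-08), and by 10.64 and 10.37 without the 10 libraries, where 3.66% of names were called higher and 1.74% lower. Pooled over libraries, with the 6 duodenum libraries alone, the ratio of duodenum to jejunum was 2818 for miR-216a-5p (95% counting interval 1294 to 7682) and 2125 for miR-217-5p (1216 to 4113). The 4 other members had 0 to 2 counts in all jejunum libraries together. Pooled over the 6 duodenum libraries, miR-217-3p was at least 168-fold higher than the 3 counts that 0 allows over the jejunum group. Endocrine miR-375-3p stood at 5681 to 9605 CPM in the 6 duodenum libraries and at 2771 to 6274 CPM in jejunum, with overlap. Of the 9 pancreas names above, 4 were called higher in duodenum than in jejunum in the fit over all 10 duodenum libraries (both miR-148a-3p names, miR-193b-3p and miR-101c). Their part in the members' level was not tested.

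Across the 6 rats, the more of the cluster a pancreas library held, the less the duodenum library of the same rat held. Pearson's r of the summed levels (log2) was -0.96 and Spearman's rho -0.89. By member, r was negative past adjustment over 6 for miR-216a-5p (r = -0.94, exact permutation p = 0.00833, adjusted p = 0.0444), miR-217-5p (-0.90, 0.0167, 0.0444) and miR-216a-3p (-0.87, 0.0222, 0.0444). Spearman's rho of these was -0.94, -0.89 and -0.89, with an exact adjusted p of 0.0667 for each. The 3 other members had r of -0.36 to 0.27. Sex cannot be told apart from this relation: rats 3, 5 and 6 are male, and all had more in duodenum and less in pancreas than the female rats 8, 9 and 10. With 3 rats of each sex, r of the sums was -0.94 in males and -0.73 in females, and without the 2 rats farthest from the median it was -0.97 over 4 rats. Over all 10 rats, with the 4 libraries unlike duodenum, it was 0.00091.

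Arms and make-up were compared between pancreas and duodenum of the same 6 rats. The log2 arm ratio in pancreas minus that in duodenum was 0.33 ± 0.43 (SD) for miR-216a, -0.68 ± 0.56 for miR-216b and -0.16 ± 0.27 for miR-217, and 0 of 3 passed the exact sign-flip test (adjusted p = 0.234, 0.188 and 0.25; 0 unadjusted). As a part of the cluster, against the sum of the 5 others, miR-216a-5p was higher in pancreas in 6 of 6 rats (log2 difference 0.42 ± 0.16) and miR-216b-5p lower in 6 of 6 rats (-0.72 ± 0.36). Both reached the smallest exact p that 6 pairs can give, 0.0312, and an adjusted p of 0.0938, so 0 of 6 members passed adjustment and 2 passed unadjusted.

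In glandular stomach 2 libraries held the cluster at a raised level. The libraries of rats 10 and 11 held 319 and 186 CPM of the 6 members, and the 8 others 0.394 to 0.91 CPM. The 2 runs of each of these libraries gave close values (319 and 319, and 186 and 189 CPM). Stomach was collected with a stretch of duodenum attached. The intestinal epithelial miRNAs summed to 9524 and 14157 CPM in these 2 libraries, within the range of the others (8990 to 38940 CPM), and miR-375-3p stood at 3533 and 4327 CPM against 2274 to 5667 CPM in the others. The part of attached tissue in the result was not tested. MiR-217-5p took 58.8% of their member counts and miR-216a-5p 26.1%. In edgeR, glandular stomach exceeded non-glandular stomach for 4 of 6 members, against 4.02% of all names higher and 2.25% lower. MiR-217-5p differed by 5.86 ± 1.32 (adjusted p = 0.00139) and miR-216a-5p by 4.64 ± 1.29 (0.0119), and the call rests on those 2 rats. With the rat as a block 4 passed again, with miR-216a-3p lost (adjusted p = 0.0735 in place of 0.0441) and miR-216b-3p gained (0.0442 in place of 0.0868). Without the 10 libraries, none of which is a stomach library, the differences of miR-217-5p and miR-216a-5p were 5.86 and 4.70 and 6 of 6 passed, against 7.01% of names higher and 5.21% lower.

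In the nervous system the cluster was low but present in every DRG, brainstem and cerebellum library, and its make-up was not that of pancreas. These comparisons were chosen after the values had been seen. Brainstem held 5.97 to 21.8 CPM of miR-217-5p (median 15.3) and cerebellum 4.08 to 10.9 (median 6.81), and cerebrum 0 to 2.51 (median 0.807). MiR-217-5p was 3.75 ± 1.15 higher in brainstem than in cerebrum on the log2 scale (SE, edgeR adjusted p = 0.0229) and 3.58 ± 1.15 higher in cerebellum (0.0147). Brainstem passed for 2 of 6 members, against 2.86% of names higher and 4.14% lower, and cerebellum for 1 of 6, against 11.3% higher and 10.1% lower. With the rat as a block miR-216b-3p also passed in brainstem (edgeR adjusted p = 0.0404). Without the 10 libraries, 6 of 6 passed in brainstem and 3 of 6 in cerebellum, against 6.33% and 13.9% of names higher, and 9.24% lower in brainstem. None of the 10 is labelled brainstem, cerebellum or cerebrum. MiR-217-3p, the second member that passed, had 48 counts in brainstem and 0 in cerebrum, and pooled it was at least 16.9-fold higher in brainstem. The intestinal epithelial miRNAs and miR-375-3p stood at 1572 to 4026 CPM and 45.9 to 252 CPM in brainstem, and at 699 to 1824 CPM and 45.9 to 141 CPM in cerebrum, and 0 of the 9 other pancreas names were called higher in brainstem than in cerebrum by edgeR. Their part was not tested.

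The make-up of the cluster held less miR-216a-5p in these tissues. In pancreas the members' counts were 39.8% miR-216a-5p, 47.4% miR-217-5p, 3.97% miR-216a-3p and 5.42% miR-216b-5p. In brainstem these were 15.3%, 58.5%, 8.63% and 11.1% of 1194 counts, and in DRG 5.94%, 70.8%, 12.2% and 5.16% of 640. In cerebellum, with 517 counts, they were 19.5%, 69.1%, 3.48% and 5.80%. Against the sum of the other members, miR-216a-5p was higher in pancreas than in brainstem by 1.81 ± 0.63 in log2 (SD, 10 of 10 rats, adjusted p = 0.00293, exact sign-flip permutation test). The same difference was -1.93 ± 0.48 for miR-217-3p, -1.18 ± 0.41 for miR-216b-5p and -1.13 ± 0.63 for miR-216a-3p, each below 0 in 10 of 10 rats with the same adjusted p, and -0.63 ± 0.48 for miR-217-5p, below 0 in 9 of 10 rats (0.00469). For miR-216b-3p it was 0.01 ± 1.04 (0.977).

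**Figure D3:**
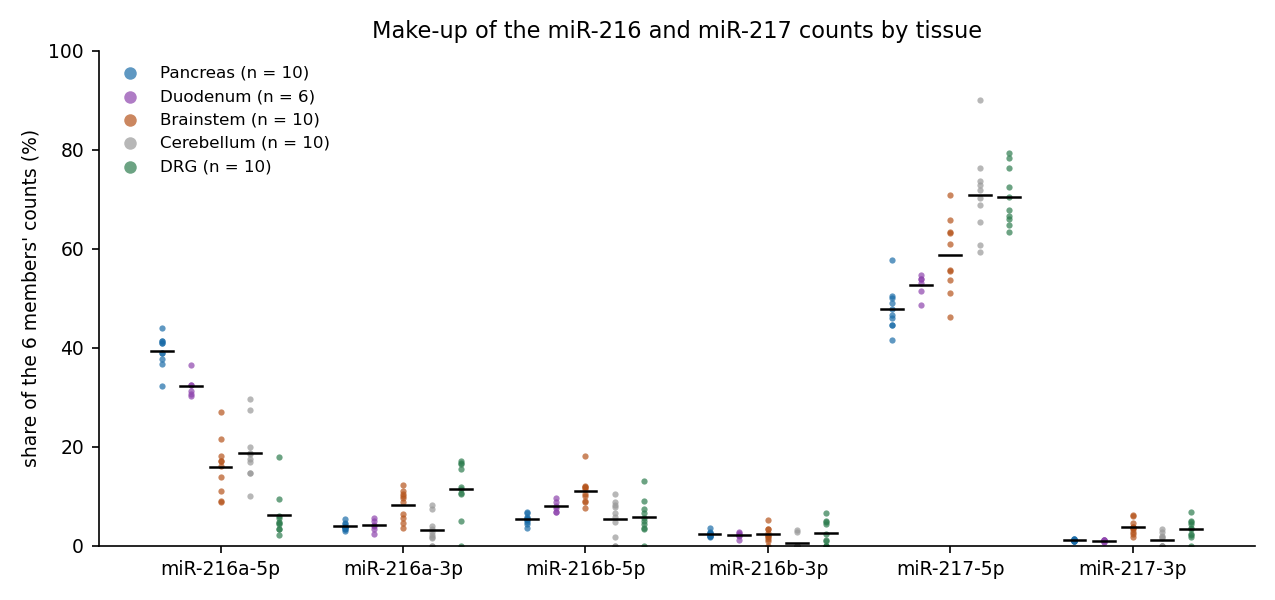
Share of the 6 members' counts (%) on each member, 1 point for each library, with the mean as a bar. MiR-216a-5p lies at 32.3% to 43.9% in the 10 pancreas libraries and at 8.86% to 26.9% in the 10 brainstem libraries.

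The arm ratio of miR-216a was lower in brainstem. Of the 10 brainstem libraries, 7 had 20 or more counts of the 2 arms, and their log2 ratio was 0.81 ± 0.88, from -0.28 to 2.19. In pancreas of the same 7 rats it was 3.34 ± 0.21. The difference was 2.52 ± 0.90, above 0 in 7 of 7 rats (exact p = 0.0156, adjusted p = 0.0234, sign-flip test). For miR-217 the ratio was 5.44 ± 0.26 in pancreas and 3.84 ± 0.59 in brainstem, a difference of 1.59 ± 0.55 in 10 of 10 rats (exact adjusted p = 0.00586). MiR-216b had enough counts in 3 rats. In the 9 cerebellum libraries with enough counts the miR-217 log2 ratio was 5.22 ± 0.95 (18.2 to 85 as a ratio). It overlapped the pancreas range and was not tested. In the DRG pools the 3p arm of miR-216a had the higher count, with 16 counts of 5p and 38 of 3p in the female pool and 22 and 40 in the male pool, while miR-217 had 197 and 12, and 256 and 13. The DRG pools are 2 samples, and their arm ratio was not compared with pancreas by a test.

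**Figure D4:**
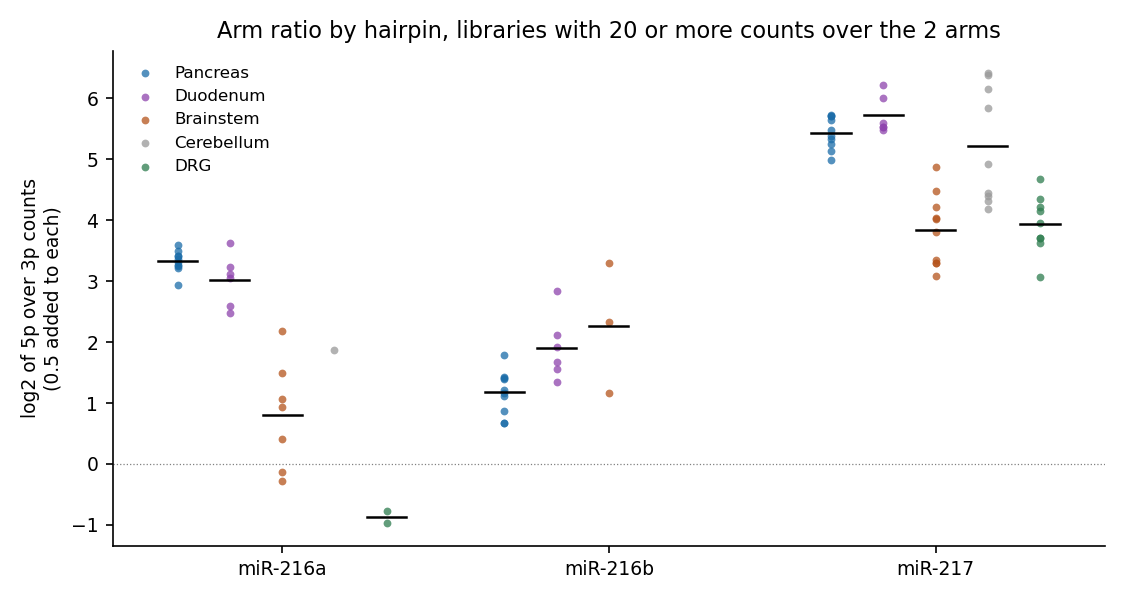
Log2 of 5p over 3p counts by hairpin in single libraries of 5 tissues, bars at the mean; libraries with under 20 counts of a hairpin are not drawn. For miR-216a the 10 pancreas libraries lie at 2.94 to 3.59 and the 7 brainstem libraries at -0.28 to 2.19.

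The isomiR tables show which sequences these counts are. They held 2081 different sequences of the 6 members, and totals of members and libraries were the same in both tables in 384 of 384 cases compared. One sequencing lane, lane 8 of flow cell C2BUMACXX, has to be set apart here. In its 5 runs examined, 62.6% to 64.5% of the reads of miR-26a-5p, an abundant miRNA used as a yardstick, had 1 more base at the 5' end, against a median of 0.0446% and a highest value of 0.250% in 131 other runs. Pancreas of rat 5, duodenum of rat 8, brainstem of rat 6 and 1 DRG library had a run in this lane. Pancreas of rat 5 held 12001 CPM of the cluster in lane 8 and 12479 CPM in its other run, and duodenum of rat 8 held 667 and 695 CPM. All 5' ends below leave the lane out.

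In pancreas the sequences with most counts were the ones below, written in T as the tables give them and with bases 2 to 8 in capitals, to show where the ends lie.
miR-216a-5p, 22.2% of its counts: tAATCTCAgctggcaactgtga
miR-217-5p, 46.4% of its counts: tACTGCATcaggaactgactgga
miR-216b-5p, 49.4% of its counts: aAATCTCTgcaggcaaatgtga
miR-216a-3p, 54.8% of its counts: cACAGTGGtctctgggattatg
miR-216b-3p, 26.4% of its counts: cACACTTActtgtagagattct
miR-217-3p, 43.8% of its counts: cATCAGTTcctaatgcattgcc

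The most counted miR-216a-5p, miR-216b-5p and miR-216a-3p sequences were the RefSeq ones. That of miR-217-5p was 1 base longer at the 3' end, and that of miR-217-3p began 1 base earlier. The lengths differed between the main products: 80.9% ± 1.90 of miR-217-5p counts were of 22 bases or longer (SD, 10 libraries), and 37.4% ± 5.11 of miR-216a-5p counts. In duodenum the miR-216a-5p sequence with most counts was the one that ends 2 bases earlier, 28.8% of 6828 counts, and the 22-base one had 10.8%:
miR-216a-5p in duodenum: tAATCTCAgctggcaactgt
Its 22-base sequence took 10.6 ± 3.73 percentage points more in pancreas than in duodenum, and more in 6 of 6 rats (exact p = 0.0312, the smallest possible, adjusted p = 0.375). With lane 8 included 0 of 12 isomiR measures passed, adjusted or not, and without it 0 of 12 passed adjusted and 1 unadjusted.

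The 5' end of miR-217-5p differed between pancreas and the nervous system. The share of its counts that began 1 base earlier was 7.62% to 9.00% in the 10 pancreas libraries and 7.91% to 10.2% in the 6 duodenum libraries. It was 20% to 43.6% in 9 brainstem libraries (mean 32.4% ± 7.31), 15.6% to 48.6% in 9 cerebellum libraries and 43.5% to 55.3% in 7 DRG libraries, which are technical libraries of the 2 pools. No library of these 3 nervous tissues overlapped the pancreas range. In brainstem the 2 leading sequences of this kind had 69 and 64 of 651 counts:
miR-217-5p, 1 base earlier, with 1 mismatch at its 3' end: aTACTGCAtcaggaactgactga
miR-217-5p, 1 base earlier: aTACTGCAtcaggaactgact
The extra base was A in 100% of 209 such counts in brainstem and in 99.7% of 16927 in pancreas. It is the base that precedes the mature sequence in the hairpin, and the capitals in the lines above show the bases that then stand at 2 to 8. Counting every 5' end other than the usual one, the share was 8.54% ± 0.46 in pancreas and 32.8% ± 7.40 in brainstem of the same 9 rats. Pancreas minus brainstem was -24.3 ± 7.25 percentage points, below 0 in 9 of 9 rats (exact p = 0.00391, adjusted p = 0.0234, sign-flip test). For miR-216a-5p, in the 4 rats with enough counts, the share was 10.9% ± 0.87 in pancreas and 11.4% ± 4.42 in brainstem (difference -0.45 points, from -5.19 to 5.72 by rat, exact adjusted p = 1, where 4 pairs cannot give an unadjusted p under 0.125).

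**Figure D5:**
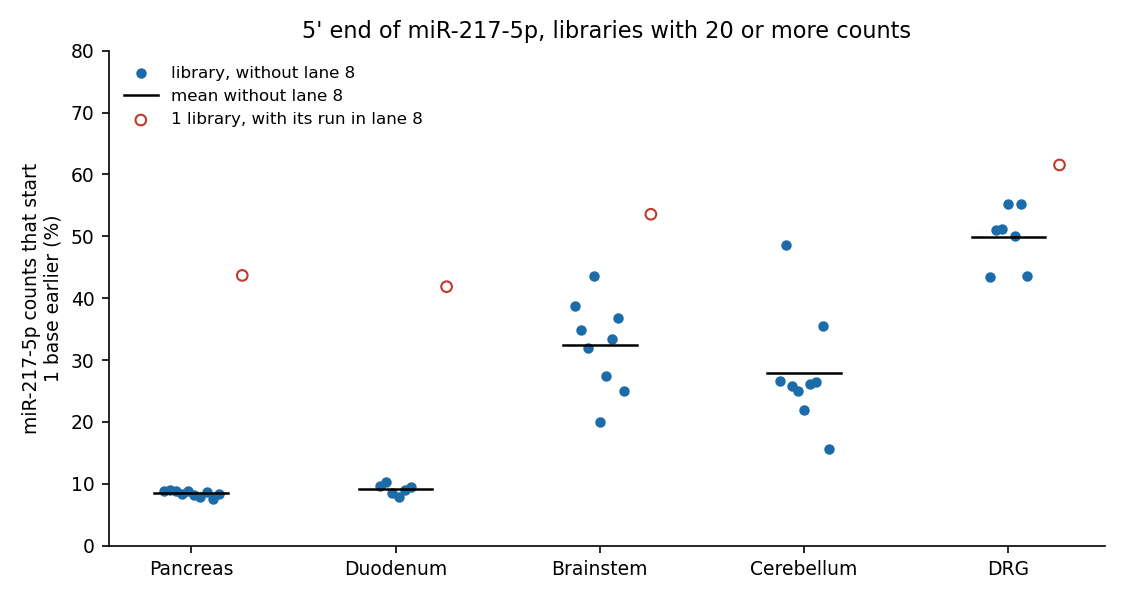
Share of miR-217-5p counts that start 1 base earlier (%) in single libraries of 5 tissues, without lane 8 of flow cell C2BUMACXX. Pancreas lies at 7.62% to 9.00% and brainstem at 20% to 43.6%; open circles show the 4 libraries that had a run in that lane with it included.

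Pancreas runs shared lanes with runs of other tissues, and the members' level was compared between the runs of 1 library. In 98 libraries with runs of both kinds, 53 had the higher summed level in the run that shared a lane with pancreas, 33 the lower and 12 the same. The medians were 0.880 and 0.451 CPM. The difference was 1.36 ± 20.6 CPM (mean and SD, sign-flip permutation p = 0.537) on the linear scale, and 0.28 ± 1.05 on the scale of log2 of CPM plus 1 (p = 0.00627), higher in the shared lane. In the 71 of these libraries that were under 100 CPM and outside duodenum, glandular stomach, brainstem, cerebellum and DRG, a set chosen after seeing the data, 38 were higher in the shared lane, 21 lower and 12 the same (medians 0.617 and 0 CPM, permutation p = 0.0146), so these low levels were on balance higher beside pancreas. Depth also differed between the runs, with a median total of 2068980.5 counts in shared and 938180.5 in other lanes, and its part was not tested. Of 6 brainstem libraries with both kinds of run, 3 were higher in the shared lane, with medians of 23.99 and 23.4 CPM. Cerebellum was higher in the shared lane in 5 of 7 libraries, with medians of 11.03 and 10.5 CPM. The widest gap was in rat 6, at 16.7 CPM from 8 counts in the shared lane and 7.14 CPM from 30 counts in the other. DRG was higher in 3 of 4 libraries, with medians of 29.1 and 24.7 CPM, and 1 library had 29.3 CPM in the shared lane and no member count in 104386 counts of its other run. Heart of rat 3 had 9.08 CPM in lane 8, which held pancreas of rat 5, and 1.47 CPM in its other run. The lane of that other run also held pancreas, so this pair does not compare shared with other lanes.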

How the data were processed

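Per the labels and the study's methods, small RNA of each tissue (miRNeasy RNA, TruSeq small RNA libraries, Illumina HiSeq) was trimmed by the authors with cutadapt 1.4.1, dropping reads under 17 bases, and counted with miRDeep2 2.0.0 against miRBase 20. The values deposited by the authors are unnormalized read counts per miRNA and per isomiR. Reads of near-identical miRNAs share composite names, so the split between such copies is uncertain. The 14 runs that repeat a lane were set aside, and the other of 458 runs were summed to libraries, with DRG summed to 2 pools for the fits (207 samples).

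Tests across all names used edgeR 4.0.16 (quasi-likelihood, upper quartile scaling, filterByExpr) in R 4.3.3 with Benjamini-Hochberg adjustment at 0.05, and DESeq2 1.42.0 as an alternative. Paired values used exact two-sided sign-flip permutation tests with 0.5 added to counts and 20 counts as the minimum, and correlations used permutation tests with 100000 resamples (scipy 1.17.1). A library was set apart when its profile correlated better with another tissue than with its own by over 0.05. Same-numbered libraries come from the same rat, and their deviations correlated weakly (median r 0.0153 over 1808 pairs, against -0.00761 for different rats). On data simulated for the pancreas comparison, 100% of 200 of 1066 names changed by 2 in log2 were recovered, with 10 calls among the unchanged. IsomiR tables of 144 runs were used and those of 314 were not used here. The text names the 6 members, the 5 other names with the most similar tissue pattern, and a list of pancreas miRNAs. That list was drawn in large part from the study's own pancreas names. The members, lists and comparisons were chosen with earlier results of these data known, and the brainstem and cerebellum comparisons, the library exclusion and the lane exclusion were added after seeing the data.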

Additional observations from a re-analysis of the deposited data

Results flagged for a closer look

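Each value here lay far from the other libraries of its label by Dixon's test at the 95% level, which chance alone passes in about 1 of 20 groups. Summed levels of the 6 members were 2222 CPM in the library labelled adrenal of rat 8 (median of the others 0.402), 1696 CPM in hippocampus of rat 6 (0.994), 1644 CPM in ovary of rat 11 (1.17) and 1431 CPM in uterus of rat 8 (0.851). These 4 are libraries whose profiles lay closest to duodenum. Cortex of rat 8 had 10.8 CPM, with 68.5 CPM in 1 run and 0 in the other, and kidney of rat 4 had 9.17 CPM, with 82.4 CPM in 1 run and 0.539 CPM in the other. Neither run of cortex of rat 8 shared a lane with pancreas. The kidney run at 82.4 CPM shared a lane with pancreas and held 36 member counts in 436927. Its other run held 2 in 3709007. Heart of rat 3 had 7.75 CPM (others 2.09), and medulla of rat 3 had 1.62 CPM (others 0.596). In pancreas, miR-216a-3p of rat 7 stood at 650 CPM, against a median of 474 CPM in the others.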

How the results depend on the processing

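Of 557 values computed under alternatives, 502 were labelled the same. For an effect this meant the same direction and side of the threshold, and for a count of calls, a count equal or near. Some alternatives could not differ: the arm comparison with duodenum over all 10 rats held the same 6 rats as the main one. The counts of members called in pancreas against the other tissues, pancreas against duodenum and duodenum against jejunum were 6 under every edgeR alternative. DESeq2 called 4 in pancreas against duodenum. Co-variation called 14 pairs with upper quartile factors and 6 on flow cell D1GBMACXX alone, in place of 1. Glandular against non-glandular stomach called 2 on that flow cell, 3 with DESeq2, 5 with TMM scaling, 6 without a filter and 6 without the 10 libraries, in place of 4. Of all names it called 55 higher and 33 lower of 1046 on that flow cell, and 79 and 58 of 1641 with DESeq2. The numbers were 124 and 35 of 1641 with TMM scaling, and 74 and 56 of 7517 without a filter. Brainstem against cerebrum called 6 without a filter, 6 without the 10 libraries, 1 on that flow cell and 1 with DESeq2, in place of 2. Of all names it called 62 higher and 56 lower of 7517 without a filter. The numbers were 43 and 22 of 1046 on that flow cell, and 105 and 63 of 1641 with DESeq2. Cerebellum against cerebrum called 3 without a filter and 3 without the 10 libraries, in place of 1. Without a filter it called 174 names higher and 128 lower of 7517. The make-up comparison with duodenum called 2 over all 10 rats, in place of 0. Its difference for miR-216b-3p turned to -0.0070 with a pseudocount of 1, -0.61 over all 10 rats and -0.13 without lane 8, and that for miR-217-3p to -1.24 over all 10 rats. Against brainstem miR-216b-3p turned to -0.29 with a pseudocount of 1, and the arm comparison called 1 of 1 hairpins at a minimum of 50 counts. The difference between lanes was 0.28 on the log2 scale (p = 0.00627) and 1.47 CPM in the low libraries alone (p = 0.0146), against 1.36 CPM on the linear scale (p = 0.537, sign-flip permutation tests). In the low libraries the SD was 9.75 CPM and the median difference 0.278 CPM. The highest difference among them, 81.9 CPM, was in kidney of rat 4. The correlation of duodenum with pancreas was 0.00091 over all 10 rats. The cause of these changes was not tested. Female against male pancreas called 0 with any 1 rat left out. With the replicate block for the rat, miR-216a-5p in pancreas against the other tissues was 11.81, and beyond the calls given with stomach and brainstem the block changed no other call. Depth limits the low tissues most: 78 libraries held 3 member counts or fewer.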
